A study of Mus musculus with 17 samples.

Results

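Newborn testes of Pld6 knockout (KO) mice were compared with newborn wild-type (WT) testes, using 4 Pld6 KO and 2 WT libraries of the 17 in the series. All were whole testes collected on the day of birth (P0) from mice of strain C57BL6/J, and every gene of the deposited P0 table with an accepted status entered the comparison. A further pair of groups from the same table gave a second comparison of Pld6 loss, Dnmt3l KO (2 libraries) and the double knockout of Pld6 and Dnmt3l (DKO, 3 libraries), which share no library with the first comparison. The knockouts are carried in all cells from conception, and both mutant lines had been backcrossed to the same strain. The labels name biological replicates but not how many animals made up each, so p-values measure the spread between these libraries.

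Pld6 encodes an enzyme of the mitochondrial outer membrane that cuts long precursor RNA into PIWI-interacting RNA (piRNA). In the male germ cells of the fetus and newborn, which are called prospermatogonia, piRNAs guide PIWI proteins to cut retrotransposon transcripts and direct DNA methylation to retrotransposon copies. Dnmt3l encodes the cofactor of the DNA methyltransferases that lay down that methylation. Prospermatogonia are a minority of the cells in a newborn testis, beside Sertoli, Leydig, peritubular myoid and vascular cells, so the comparison asks what loss of piRNA did to the RefSeq transcriptome of a mixed organ.

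The 6 libraries held 10253012 to 12932265 fragments, and 15901 genes passed the filter on low counts. Levels are given as CPM, the fragment counts brought to a common library size with TMM scaling, and fold changes on the log2 scale with their standard error (SE). A gene was called at a false discovery rate (FDR) under 0.05 in edgeR and a fold change over 2. By this rule 1 gene was called, 0.00629% of those tested. At an unadjusted p under 0.05, 500 genes were higher in Pld6 KO (3.14%) and 305 were lower (1.92%), together 5.06% of all genes tested. The CPM values of the 4 KO and 2 WT libraries did not overlap in 927 genes that were higher (5.83%) and 904 that were lower (5.69%). The median log2 fold change over all tested genes was 0.02.

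Pld6 itself, a protein-coding gene at 59783893 to 59787657 on chromosome 11 (GRCm38, as for all positions), stood at 4.84 and 3.36 CPM in WT and at 0.165, 0, 0.0856 and 0.201 CPM in Pld6 KO, or 57 and 40 counts against at most 2. All 4 KO libraries lay below both WT libraries. The ratio of KO to WT was 0.0264, with an exact 95% interval of 0.00837 to 0.0637 that covers counting error only. The FDR of 0.0585 (edgeR) lay just above the threshold.

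The single called gene rose. This was 4930470H14Rik, which makes a long non-coding RNA from 4044658 to 4082995 on chromosome 17. It had 15.5 and 15.9 CPM in WT and 98.4, 178, 202 and 302 CPM in Pld6 KO. Every KO library lay far above both WT libraries, which were nearly equal, and the means were 15.7 ± 0.286 CPM (SD, n = 2) and 195 ± 83.9 CPM (SD, n = 4). In edgeR this was a log2 fold change of 3.64 with an SE of 0.43 and an FDR of 0.0128. On the background without Dnmt3l the RNA rose too, from 26 and 32.2 CPM in Dnmt3l KO to 303, 148 and 274 CPM in DKO, by 3.06 on the log2 scale (SE 0.42, FDR 0.0240 in edgeR). The second effect minus the first was -0.58 (SE 0.52, unadjusted p 0.284 in edgeR), a difference that these libraries did not resolve. The call rested on both WT libraries, since the FDR was 0.284 without WT replicate 1 and 0.152 without WT replicate 2, at log2 fold changes of 3.59 and 3.66.

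The sequence of the 4930470H14Rik transcript was inspected after its values were seen. Its spliced RNA in GENCODE M21 is 1734 nt long, in 4 exons on the minus strand. The study's primers for quantitative PCR on L1Md_A, the young A-type subfamily of the LINE-1 (L1) retrotransposon, were searched in it. These primers are shown because they place the element within the RNA. Capitals mark a primer that was found in the RNA without a mismatch, and lower case one that was not. Each is written 5′ to 3′ as it was ordered.
L1Md_A pair 1 forward (monomer of the promoter): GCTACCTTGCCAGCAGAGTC
L1Md_A pair 1 reverse: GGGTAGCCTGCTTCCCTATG
L1Md_A pair 2 forward (5′ region): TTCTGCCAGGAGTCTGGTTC
L1Md_A pair 2 reverse: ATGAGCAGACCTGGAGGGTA
L1Md_A pair 3 forward (5′ region): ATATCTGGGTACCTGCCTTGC
L1Md_A pair 3 reverse: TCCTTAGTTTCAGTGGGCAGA
L1Md_A pair 4 forward (5′ region into ORF1): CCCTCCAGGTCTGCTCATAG
L1Md_A pair 4 reverse: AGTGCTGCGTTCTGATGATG
L1Md_A pair 5 forward (ORF1): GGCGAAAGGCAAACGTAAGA
L1Md_A pair 5 reverse: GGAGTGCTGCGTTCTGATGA
L1Md_A pair 6 forward (ORF1): ggtgaggaaatgaacaaaacc
L1Md_A pair 6 reverse: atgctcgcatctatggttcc

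Of the 12 primers, 10 were present, all in the first exon (chr17:4081830-4082995). They lay between positions 304 and 868 of the RNA, a stretch of 565 nt that corresponds to chr17:4082128-4082692. All 10 were in the orientation opposite to L1, so the RNA reads the element from its first open reading frame (ORF1) outward through the 5′ region and the promoter monomer. Of 15901 tested genes, 15129 (95.1%) had a GENCODE transcript of the same symbol, and 10 of these held at least 1 of the primers. The other 9 held 1 or 2 primers each. Of those 9, 1 was higher in Pld6 KO at an unadjusted p under 0.05 (A630089N07Rik) and 0 were lower, beside 3.14% and 1.92% of all genes. Their median log2 fold change was 0.10.

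**Figure D1:**
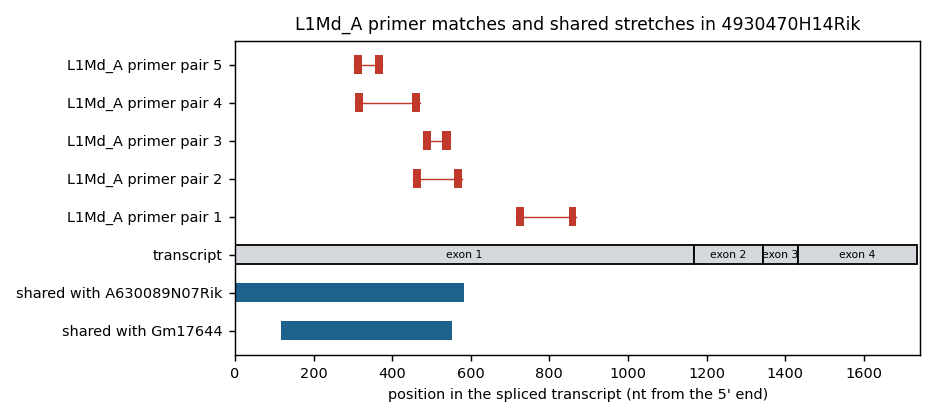
Positions in the spliced 4930470H14Rik RNA, in nt from its 5′ end, of the matched L1Md_A primers (red, joined for each pair), of the 4 exons (grey) and of the stretches shared with A630089N07Rik and Gm17644 (blue). All 10 matched primers lie in exon 1, between positions 304 and 868.

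The libraries came from a kit that keeps strand, but the strand setting of the counting is not given in the sources used here, nor is how fragments that align to several L1 copies were placed. Fragments of this locus and of other L1Md_A copies, and RNA of either strand, therefore cannot be told apart in the count. In the table of leptotene/zygotene (L/Z) spermatocytes, which were sequenced from a single end, the gene had 0 counts in both WT and both Pld6 KO libraries. Of the 3 nearest RefSeq genes on either side, 2 were listed in the table and neither was tested. Nox3, a subunit of an NADPH oxidase, 348.4 kb away, reached at most 0.201 CPM in the 6 libraries, and 4930548J01Rik, 36.5 kb away, was at 0 in all 6.

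Gm17644 and A630089N07Rik, both long non-coding RNAs among the leading genes, shared part of that sequence. Gm17644 (chromosome 1, 12667563 to 12673090) had 20.6 CPM in both WT libraries and 69.2, 83.3, 47 and 123 CPM in Pld6 KO. A630089N07Rik (chromosome 16, 98062512 to 98082439) had 15.1 and 17.4 CPM in WT and 40.7, 38, 33 and 51.5 CPM in Pld6 KO. In both genes all KO libraries lay above WT. Their log2 fold changes were 1.97 (SE 0.38) and 1.33 (SE 0.28), with FDR values of 0.297 and 0.640 (edgeR). Gm17644 matched 4930470H14Rik over 436 nt at 85.6% identity in the same orientation, and A630089N07Rik matched it over 583 nt at 87.3% in the opposite orientation. The longest run found in all 3 RNAs, shown because it marks the shared stretch, spans 26 nt at positions 101 to 126 of 4930470H14Rik. It is written in the direction of 4930470H14Rik and Gm17644, with capitals for the identical bases.
Run shared by 4930470H14Rik, Gm17644 and A630089N07Rik: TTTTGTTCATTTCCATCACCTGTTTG

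Across all tested genes, 15 others held a stretch of at least 150 nt and 85% identity to 4930470H14Rik. Of these, 3 were higher at an unadjusted p under 0.05 (Gm17644, A630089N07Rik and Caps2) and 0 were lower, beside 3.14% and 1.92% of all genes. The median log2 fold change of the 15 was 0.08. Gm17644 and A630089N07Rik were already among the leading genes, chosen for their values, so the count is a description. Caps2 is described with the L/Z genes.

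The 10 leading genes that were higher in Pld6 KO were the 10 smallest p-values among genes whose libraries did not overlap and whose KO mean was at least 50 counts. Besides the 3 RNAs above, they were 1 transcribed pseudogene and 6 protein-coding genes. Olfr856-ps1 (chromosome 9, 19657039 to 19658680), a pseudogene of an olfactory receptor, had 37.5 and 26.3 CPM in WT and 135, 247, 168 and 334 CPM in Pld6 KO. The KO and WT libraries were far apart. The fold change was 2.79 on the log2 scale (SE 0.40, FDR 0.0585, edgeR). It shared no stretch with another tested gene.

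Tmc2 (chromosome 2, 130195194 to 130265189) encodes a transmembrane channel-like protein of inner-ear hair cells. It had 0.17 and 0.252 CPM in WT, which is 2 and 3 counts, and 0.743, 8.19, 5.31 and 10.3 CPM in Pld6 KO. The first KO library stood near WT and the other 3 far above it. The ratio of KO to WT was 28.2 (exact 95% interval 12 to 87.6, counting error only), at an unadjusted p of 0.000263 and an FDR of 0.522 (edgeR). The FDR was 0.00392 without Pld6 KO replicate 1, and 0.915, 0.228 and 0.893 without replicates 2, 3 and 4 (edgeR). The low value thus depended on leaving out the library nearest WT. Dnmt3l KO already held 1.4 and 3.64 CPM, against 7.46, 7.5 and 5.78 CPM in DKO. Transcripts of Tmc2 shared a stretch of at least 150 nt and 85% identity with 662 other tested genes. How fragments of that stretch were counted is not given. Tmc2 belongs to the genes that the study linked to an activated retrotransposon in L/Z spermatocytes. There it had 0.169 and 0.34 CPM in WT and 7.85 and 6.07 CPM in Pld6 KO, where 5.62% of genes were higher at an unadjusted p under 0.05.

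Zfp488 (chromosome 14, 33967070 to 33979034), a zinc finger transcriptional regulator, had 91.8 and 77.5 CPM in WT and 200, 257, 181 and 324 CPM in Pld6 KO (log2 fold change 1.50, SE 0.35, FDR 0.840, edgeR). Olfr613 (chromosome 7, 103550368 to 103555504), an olfactory receptor gene, had 28.5 and 23 CPM in WT and 62.4, 79.6, 45.6 and 98.6 CPM in Pld6 KO. Ap1s3 (chromosome 1, 79606869 to 79672018), a small subunit of the AP-1 clathrin adaptor, had 16.1 and 12.4 CPM in WT and 33.8, 40.1, 19.5 and 45.1 CPM in Pld6 KO. The 3 genes lie on different chromosomes but share sequence. Olfr613 matched the Zfp488 transcript over 531 nt at 96.4% identity, and Ap1s3 matched it over 311 nt at 93.9%, both in the same orientation. In all, 97 tested genes held a stretch related to Zfp488. Of these 7 were higher and 4 lower at an unadjusted p under 0.05, beside 3.14% and 1.92% of all genes, and the median log2 fold change was -0.02. The 7 include Ap1s3 and Olfr613, leading genes already chosen for their values, so the count is a description.

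Of the remaining 2, Ccdc69 (chromosome 11, 55049733 to 55078666), a coiled-coil protein of the mitotic spindle, had 2.04 and 1.85 CPM in WT and 4.54, 6.92, 9.33 and 5.23 CPM in Pld6 KO. Pcdhgb1 (chromosome 18, 37680272 to 37841870), one of the clustered gamma protocadherins of the cell surface, had 6.97 and 5.88 CPM in WT and 13.6, 13.1, 9.76 and 15.1 CPM in Pld6 KO. Their log2 fold changes were 1.74 and 1.00. Pcdhgb1 shares its last exons with the other members of its cluster, so fragments there could be split between them. Except for 4930470H14Rik, no leading gene passed the FDR threshold. The DESeq2 Wald test called 14 genes, among them 7 of the other 9 leading genes, all but Pcdhgb1 and Ap1s3.

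**Figure D2:**
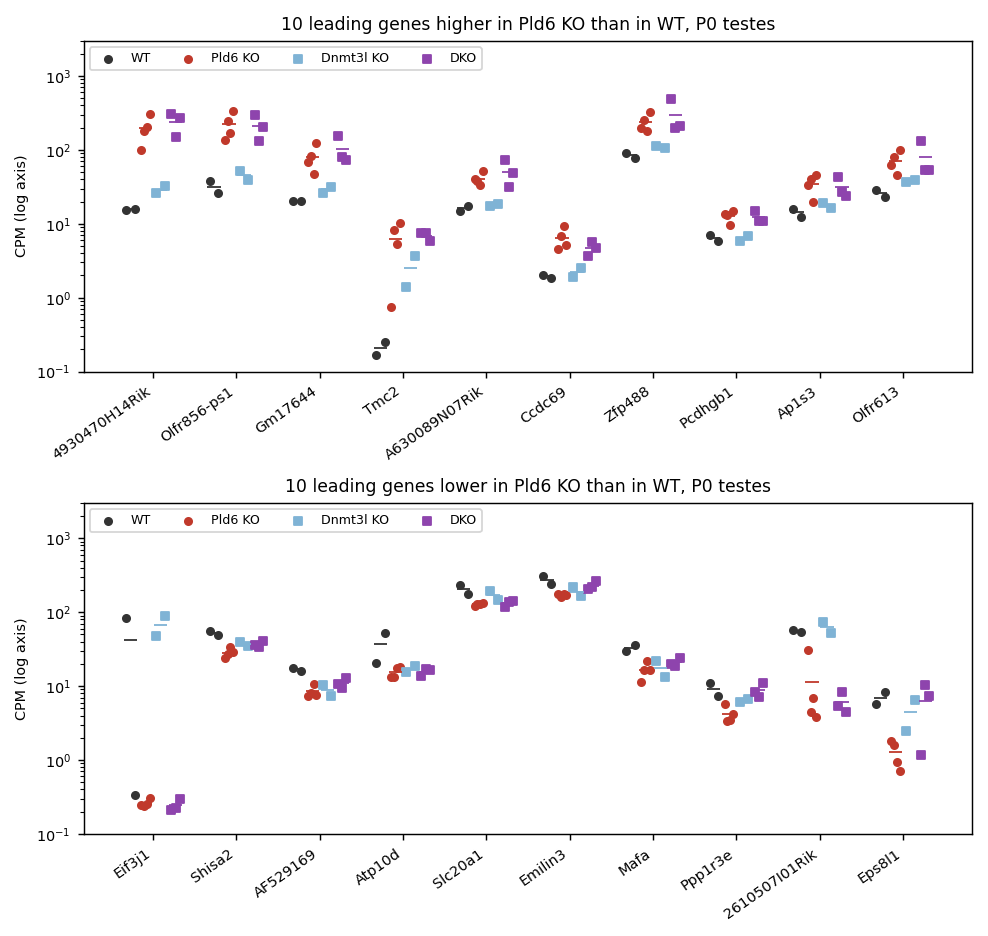
CPM on a log axis for the 10 leading genes that were higher (top) and lower (bottom) in Pld6 KO than in WT, with 1 point per library and a short line at the group mean. In the top panel the DKO libraries lie above the Dnmt3l KO libraries in all 10 genes, and in the bottom panel they lie below them in 3.

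DKO and Dnmt3l KO gave a second measurement of Pld6 loss in other animals. All 10 leading genes that were higher in Pld6 KO were also higher in DKO than in Dnmt3l KO. The libraries did not overlap in any of the 10, against 19.4% of all genes without overlap in that direction, and 9 of the 10 had an unadjusted p under 0.05, against 9.99% of all genes. The exception was Tmc2 (log2 fold change 1.44, SE 0.72, p 0.0633, edgeR). The median of the 10 was 1.62 in Pld6 KO and 1.44 in DKO, beside medians over all tested genes of 0.02 and -0.01. Olfr856-ps1 differed by 2.21 (SE 0.40), Gm17644 by 1.81 (SE 0.38), A630089N07Rik by 1.50 (SE 0.29) and Zfp488 by 1.44 (SE 0.36) on the log2 scale. Their FDR values there were 0.0612, 0.0756, 0.0724 and 0.0962 (edgeR), and 12 of all genes were called (0.0755%).

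Of the 500 genes higher at an unadjusted p under 0.05, 377 (75.4%) were also higher in DKO than in Dnmt3l KO, where 49.1% of all genes were. In that comparison 109 of the 500 passed an unadjusted p of 0.05 in the same direction and 11 in the opposite one. Of all genes, 9.99% were higher and 7.84% lower there at that p. Among the 41 genes with an unadjusted p under 0.005 the counts were 34 with the same sign, 18 passing p 0.05 in the same direction and 0 in the opposite one. Genes that were lower carried over less often. Of those 305, 156 (51.1%) were also lower in DKO (53.2% of all genes were above 0 in Pld6 KO and 49.1% in DKO). At an unadjusted p under 0.05, 28 passed in the same direction and 32 in the opposite one, beside 7.84% of all genes lower and 9.99% higher. Among the 29 lower genes with an unadjusted p under 0.005, 18 (62.1%) had the same sign. Of these, 3 passed p 0.05 in the same direction and 0 in the opposite one. Over all tested genes, which are not independent, the Pearson correlation of both sets of log2 fold changes was 0.17. Both comparisons come from a single fit and share its estimate of the spread, but no library.

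**Figure D3:**
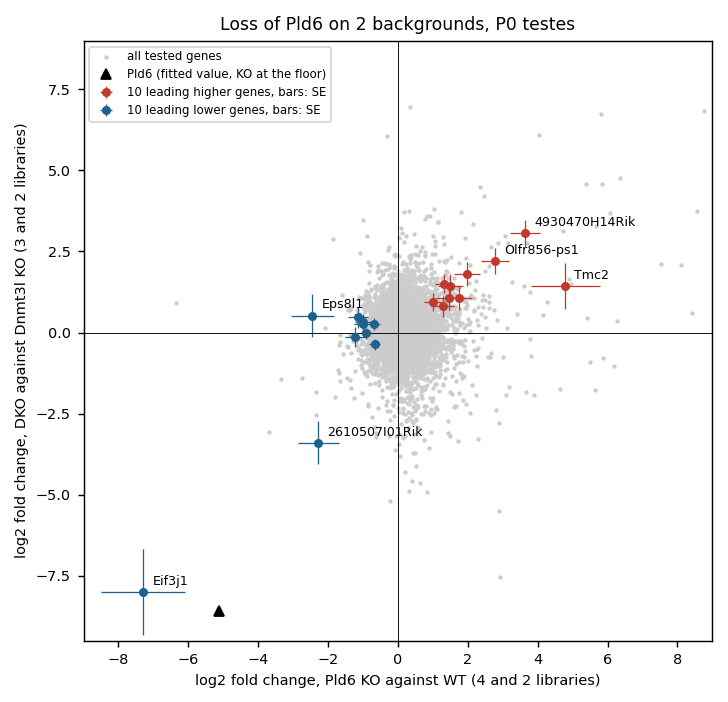
Log2 fold change of every tested gene in Pld6 KO against WT (x axis) and in DKO against Dnmt3l KO (y axis), with SE bars for the 10 leading higher (red) and 10 leading lower genes (blue), Pld6 as a black triangle and 2 genes outside the axes not drawn. All 10 red points lie above 0 on the y axis, and the blue points except Eif3j1 and 2610507I01Rik lie between -0.36 and 0.53.

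Among the 10 leading genes that were lower, Eif3j1 and 2610507I01Rik were also lower on the background without Dnmt3l at an unadjusted p under 0.05. 2610507I01Rik (chromosome 11, 59197793 to 59202431, long non-coding RNA) had 56.9 and 54.6 CPM in WT and 30.4, 4.45, 6.85 and 3.82 CPM in Pld6 KO. The first KO library lay between WT and the other 3 KO libraries. In Dnmt3l KO it had 74.8 and 52.4 CPM, and in DKO 5.33, 8.34 and 4.48 CPM. The log2 fold changes were -2.28 (SE 0.58, FDR 0.963, edgeR) and -3.40 (SE 0.66, FDR 0.0689, edgeR). Without Pld6 KO replicate 1 the first was -3.46 with an FDR of 0.000306 (edgeR). Without replicates 2, 3 and 4 it was -2, -2.09 and -2, with FDR values of 0.925, 0.305 and 0.999 (edgeR). The low FDR thus depended on leaving out the KO library nearest WT. Sorted L/Z spermatocytes of Pld6 KO were lower too, with 10.6 and 12.8 CPM in WT and 3.49 and 4.89 CPM in KO (log2 fold change -1.46, SE 0.35, unadjusted p 0.00143, edgeR), where 3.55% of genes were lower at an unadjusted p under 0.05.

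The gene lies 0.581 Mb from Pld6. All KO and DKO animals carry the mutant Pld6 chromosome, so an effect of Pld6 loss and an effect of DNA linked to the mutant allele cannot be told apart for it. Within 5 Mb of Pld6, 120 other genes were tested, of which 2 were higher and 3 lower at an unadjusted p under 0.05 (1.67% and 2.5%), and their median log2 fold change was -0.02. Besides 2610507I01Rik, the lower genes were 4933439C10Rik and Zfp692, at -0.60 and -0.56, and the higher ones were Ccdc69, 4.71 Mb away, and Zfp286.

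Eif3j1 (chromosome 2, 122028580 to 122053632), a subunit of translation initiation factor eIF3, had 83.9 and 0.336 CPM in WT and 0.238 to 0.302 CPM in the 4 Pld6 KO libraries. WT replicate 2 thus stood with the KO libraries, and without WT replicate 1 the log2 fold change went from -7.29 to -0.38. It was called in DKO against Dnmt3l KO, where it fell from 47.9 and 88.2 CPM to between 0.213 and 0.293 CPM (SE of the log2 fold change 1.32, FDR 0.0463, edgeR). Its near-identical copy Eif3j2 went the other way, with 7.14 and 76.7 CPM in WT and 81.4 to 101 CPM in Pld6 KO, and 47.8 and 12 CPM in Dnmt3l KO and 81.5 to 94.2 CPM in DKO. Summed over both copies the level was 91 and 77.1 CPM in WT and 101, 86.9, 81.7 and 91.7 CPM in KO, with overlapping groups, and 95.7 and 100 CPM in Dnmt3l KO against 81.7 to 94.5 CPM in DKO. The value of Eif3j1 alone is therefore uncertain.

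The 8 other leading lower genes had smaller differences or lower levels. Shisa2 (chromosome 14, 59625281 to 59631660), an endoplasmic reticulum protein that dampens WNT and FGF signalling, had 55.9 and 49.9 CPM in WT and 23.8, 27.1, 33.4 and 28.9 CPM in Pld6 KO. Emilin3 (chromosome 2, 160906438 to 160912339), an extracellular matrix glycoprotein, had 307 and 242 CPM in WT and 177, 160, 176 and 172 CPM in Pld6 KO. Mafa (chromosome 15, 75745501 to 75748321), a basic leucine zipper transcription factor, had 29.9 and 36.5 CPM in WT and 11.5, 16.7, 21.7 and 16.5 CPM in KO. All KO libraries of each gene lay below both WT libraries, close together in Emilin3 and more widely spread in Mafa.

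Slc20a1 (chromosome 2, 129198773 to 129211615), a phosphate transporter, had 233 and 178 CPM in WT and 123 to 133 CPM in KO. Atp10d (chromosome 5, 72203329 to 72298771), a lipid flippase gene annotated here as a transcribed pseudogene, had 20.4 and 52.8 CPM in WT and 13.3 to 18 CPM in KO, so its 2 WT libraries differed from each other by more than the lower one differed from KO. Ppp1r3e (chromosome 14, 54875597 to 54877538), which targets protein phosphatase 1 to glycogen, had 11 and 7.39 CPM against 3.34 to 5.7 CPM. Eps8l1 (chromosome 7, 4460638 to 4480487), an actin regulator, had 5.69 and 8.31 CPM against 0.704 to 1.82 CPM, and AF529169 (no position matched) had 17.8 and 16.1 CPM against 7.43 to 10.8 CPM.

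The log2 fold changes of these 8 genes ran from -2.45 in Eps8l1 to -0.67 in Slc20a1, with FDR values of 0.234 or more (edgeR). In DKO against Dnmt3l KO they ran from -0.36 in Slc20a1 to 0.53 in Eps8l1. The libraries overlapped in 6 of the 8, while DKO lay below Dnmt3l KO in Slc20a1 and above it in Ppp1r3e, against 18.7% of all genes without overlap downward. The difference between both effects had an unadjusted p under 0.05 in 7 of the 10 leading lower genes, against 10.9% of all genes, but no FDR below 0.341 (edgeR), and since the genes were chosen on 1 of the 2 effects that test is not independent of the choice. It had an unadjusted p under 0.05 in 1 of the 10 leading higher genes, Tmc2 (difference -3.34, SE 1.23, FDR 0.412, edgeR).

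The cells in the libraries were then checked by marker lists. List members with an unadjusted p under 0.05 are counted beside 3.14% of all genes higher and 1.92% lower in Pld6 KO, and 9.99% and 7.84% in DKO against Dnmt3l KO. In bulk testes, fewer cells of a type and less RNA per cell cannot be told apart. No member of the germ cell, Sertoli, Leydig or myoid lists was at 0 in all 6 libraries. The 15 prospermatogonia markers summed to 443 and 355 CPM in WT and to 159, 626, 566 and 635 CPM in Pld6 KO. Pld6 KO replicate 1 was the only library below WT. It had 28.2 CPM of the germ cell helicase Ddx4, against 42.1 and 60.8 CPM in WT and 62.9 to 72.3 CPM in the other KO libraries, and 48.4 CPM of the RNA-binding protein gene Dazl, against 90 and 107 CPM in WT and 132 to 147 CPM. Dnmt3l itself had 4.5 and 6.04 CPM in WT and 0.495, 10.7, 2.57 and 14.6 CPM in KO, an overlapping and wide range. None of the 15 markers passed an unadjusted p of 0.05, and their median log2 fold change was 0.41, or 0.77 without Pld6 KO replicate 1. That median was 0.17 without Pld6 KO replicate 4 and 0.02 with the replicate number as a block. With limma on log2(FPKM + 0.1) and log2(FPKM + 1) it was 0.12 and 0.14. The counts in DKO against Dnmt3l KO were 2 higher and 1 lower, with a median of -0.11.

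The leading genes were read again with that library in view. The level of 4930470H14Rik in Pld6 KO replicate 1 was the lowest of the 4, yet far above WT. Leaving it out gave a log2 fold change of 3.86 (FDR 0.000306, edgeR). With the mean log2 level of 14 prospermatogonia markers as a covariate the value was 3.44 (FDR 9.95e-05, edgeR), and Olfr856-ps1 and 2610507I01Rik were then called as well (log2 fold changes 2.66 and -2.58, FDR 0.00125 for both, edgeR), as was Pld6.

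Of the 25 tested genes of the piRNA pathway, Pld6 was the only one with an unadjusted p under 0.05. The list held the PIWI proteins and their Tudor-domain partners, and its median log2 fold change was 0.18, the sign of which turned to -0.11 with the prospermatogonia covariate and to -0.06 with the replicate block. In the list of phospholipase D and mitochondrial dynamics genes, 1 of 18 was lower, Lpin2, a phosphatidic acid phosphatase, at a log2 fold change of -0.48, and the median was 0.02. Among 13 genes of DNA methylation, Tdg, the glycosylase that removes oxidised methylcytosine, had 30.8 and 30.1 CPM in WT and 8.34, 9.7, 19.9 and 29.9 CPM in KO (unadjusted p 0.0413, edgeR), and the fourth KO library was at the WT level. The other 12 did not pass, and the median was -0.12. For DKO against Dnmt3l KO, 0 piRNA pathway genes were higher and 4 lower (median -0.20), and 5 DNA methylation genes were higher and 1 lower (median 0.41). None of the 14 H3K9 silencing genes (median -0.08) or of the 16 germline genes silenced by promoter methylation in somatic cells (median 0.18) passed an unadjusted p of 0.05.

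Genes next to an activated L1 or LTR copy had been chosen by the study in L/Z spermatocytes. Of 13 such genes, 8 passed the filter at P0. Of these 8, 4 were higher at an unadjusted p under 0.05 and 0 lower (3.14% and 1.92% of all genes), with a median log2 fold change of 0.83 and a range of -0.17 to 4.79. Besides Tmc2 these were Pamr1, Caps2 and Alox5. Tmc2 and Caps2, each with 2 and 3 counts in WT, passed the filter through mutant libraries where they were higher. Values over the 8 are therefore a description. The study did not find transcripts fused to retrotransposons in newborn testes of either mutant. A link between these P0 values and the retrotransposon copies was not tested. Pamr1, a secreted protease-like protein, had 4.16 and 8.56 CPM in WT and 10.8, 10.4, 12.1 and 29.6 CPM in Pld6 KO (log2 fold change 1.30, SE 0.44). Caps2, a calcium-binding protein, had 2 and 3 counts in WT and 0.428 to 1.21 CPM in KO, a ratio of 3.07 (exact 95% interval 1.18 to 10.1, counting error only). None of the 4 passed in DKO against Dnmt3l KO in the same direction, where Caps2 was lower (log2 fold change -1.10, SE 0.50) and the median of the 8 was 0.14. The median in Pld6 KO was 0.36 when only the compared groups were fitted.

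Paternally methylated imprinted genes, which are marked in fetal male germ cells and expressed in somatic cells of the testis, were examined next. Of 10 tested, 3 passed an unadjusted p of 0.05 upward (3.14% of all genes) and 0 downward, and the median log2 fold change was 0.44. Igf2, a fetal growth factor, had 484 and 605 CPM in WT and 933, 854, 755 and 1280 CPM in KO (0.81, SE 0.28). H19, the non-coding RNA of the same domain, had 708 and 1178 CPM in WT and 1939, 1378, 1167 and 2078 CPM in KO, with 1 KO library within the WT range. Dio3, which inactivates thyroid hormone, had 0.51 and 0.42 CPM against 0.991 to 1.51 CPM. None of these 3 passed in DKO against Dnmt3l KO, where Igf2 had an unadjusted p of 0.0615, H19 of 0.0653 and Dio3 of 0.127 (edgeR). There 3 other members of the 10 were higher, named here after their values were seen, Meg3, Rtl1 and Zdbf2 (9.99% of all genes), and the median was 0.56.

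Collagen genes were read as a family and not as markers of a single cell type. Of 43 collagen genes, 10 were higher and 1 lower at an unadjusted p under 0.05 (3.14% and 1.92% of all genes), with a median of 0.37. Col1a1, the main chain of type I collagen, had 854 and 1006 CPM in WT and 1808, 1462, 1385 and 2684 CPM in KO (0.98, SE 0.30). Col9a2 had 38.4 and 48.5 CPM against 85.8, 64.9, 50.6 and 139 CPM, Col6a2 1033 and 1077 CPM against 1319 to 2130 CPM, and Col27a1 48.8 and 52.8 CPM against 57.3 to 84.8 CPM. The fourth KO library was the highest for all 4 genes, and without it 4 collagens passed, while 0 did without WT replicate 1. In DKO against Dnmt3l KO, 18 of the 43 were higher and 2 lower (9.99% and 7.84% of all genes), with a median of 0.48, and 9 of the 10 passed in both comparisons.

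Of 10 peritubular myoid markers, 5 were higher and 0 lower at an unadjusted p under 0.05 (3.14% and 1.92% of all genes), with a median of 0.56, and in 4 of the 5 the KO and WT libraries overlapped. For DKO against Dnmt3l KO the counts were 3 and 0 (9.99% and 7.84% of all genes), with a median of 0.57, and Lmod1 alone passed in both. Lmod1, a smooth muscle actin nucleator, had 7.99 and 13.2 CPM in WT and 25.1, 14.5, 20.6 and 19.4 CPM in KO. Acta2, smooth muscle actin, had 432 and 743 CPM against 884, 673, 843 and 1046 CPM, with 1 KO library inside the WT range. The count was 2 without Pld6 KO replicate 4, 3 without replicate 1 or replicate 3, and 0 without WT replicate 1. Of 8 markers of the Wolffian duct and rete, neighbouring tissues that a dissection can carry along, 2 were higher at that p, Krt19 and Emx2, and the summed level was 95.6 and 69.5 CPM in WT and 79.6 to 157 CPM in KO. Krt19 had 2.72 and 3.69 CPM in WT and 13.4, 5.8, 9.33 and 50 CPM in KO. The part of these tissues in the higher collagen and myoid values was not tested.

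Sertoli cells surround the germ cells in the cords. Of 15 Sertoli cell markers, 4 were lower (1.92% of all genes) and 0 higher at an unadjusted p under 0.05, and the median was -0.32. They were Sox8, Fshr, Dhh and Aard. Fshr, the receptor of follicle-stimulating hormone, had 48.3 and 63.1 CPM in WT and 38.5, 29.9, 44.5 and 27.4 CPM in KO (-0.67, SE 0.23). Dhh, the ligand by which Sertoli cells signal to Leydig and myoid cells, had 177 and 170 CPM in WT and 96.4, 147, 147 and 80.2 CPM in KO (-0.56, SE 0.22), and Aard 336 and 280 CPM against 106 to 259 CPM. The summed level of the 15 was 5584 and 5297 CPM in WT and 4553 to 4594 CPM in KO, a narrow band below WT. The DKO and Dnmt3l KO libraries overlapped, with sums of 4697, 4048 and 3658 CPM against 4537 and 3888 CPM, 2 members higher, 1 lower and a median of 0.04. The defining markers did not separate the groups, with Amh at 566 and 400 CPM in WT and 192 to 403 CPM in KO, and Sox9 at 86.7 and 60.2 CPM in WT and 50.5 to 120 CPM in KO. The count of 4 was 1 without WT replicate 1 and 2 without WT replicate 2.

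Of 13 fetal Leydig cell markers, 2 (Star and Hsd3b1) were higher and 0 lower at an unadjusted p under 0.05, beside 3.14% of all genes higher, with a median of 0.52. The KO and WT libraries overlapped in both. The second comparison, DKO against Dnmt3l KO, had the opposite sign, with 0 higher, 1 lower (Hsd3b1, log2 fold change -0.70) and a median of -0.34. Star, which carries cholesterol into mitochondria for steroid synthesis, had 78.3 and 103 CPM in WT and 94.6, 130, 222 and 253 CPM in KO. Insl3, the hormone of testis descent, had 100 and 129 CPM against 138, 246, 81.8 and 370 CPM, which overlapped. The median of the list was 0.25 without Pld6 KO replicate 4. Macrophage (median 0.28) and endothelial lists (median 0.34) had 0 members past an unadjusted p of 0.05 of 10 and 11 tested. Erythroid markers had 1 of 7, Hbb-bs, and summed to 219 and 401 CPM in WT and 264 to 983 CPM in KO.

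**Figure D4:**
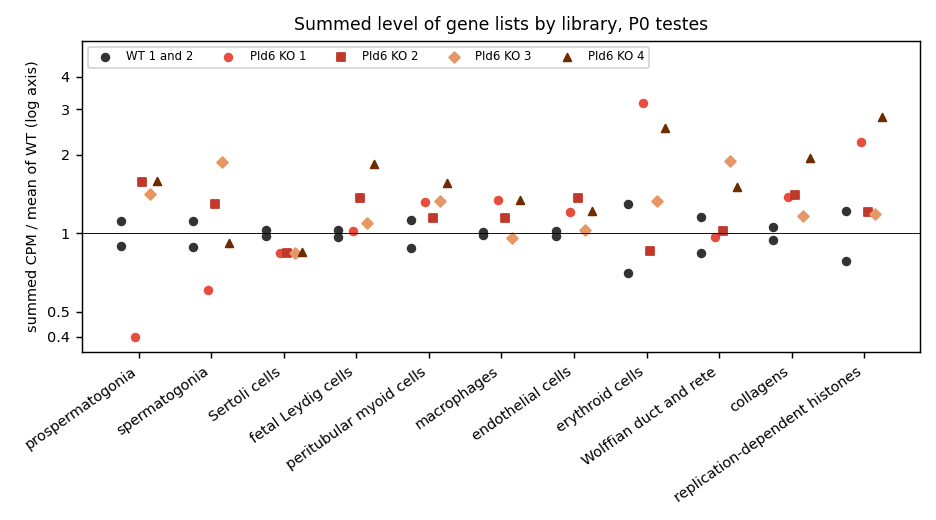
Summed CPM of each gene list in each library, divided by the mean of both WT libraries, on a log axis. Pld6 KO replicate 1 is the only library far below 1 for prospermatogonia, the 4 KO libraries form a narrow band below WT for Sertoli cells, and KO replicates 1 and 4 lie highest for histones.

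Replication-dependent histone genes make mRNAs that end in a stem-loop and mostly lack a poly(A) tail. Summed over 68 genes, the level was 45.6 and 70.8 CPM in WT and 131, 70.4, 68.8 and 163 CPM in KO, so KO replicates 1 and 4 stood apart and the other 2 lay within the WT range. Levels of single genes were low. Hist1h2af had 0.425 and 0.336 CPM in WT and 1.57, 0.636, 1.2 and 1.91 CPM in KO, and Hist1h1e had 1 and 2 counts in WT and 5.2, 1.19, 0.171 and 4.03 CPM in KO. Of the 68, 31 passed the filter on low counts, and several with 0 to 2 counts in WT passed it through the libraries where they were high, so values over the 31 are a description. At an unadjusted p under 0.05, 14 were higher and 0 lower (3.14% and 1.92% of all genes), with a median log2 fold change of 1.77. With a mean of at least 50 counts 0 passed, and the median was 0.46. The count was 5 without KO replicate 1 or 4 and 0 without WT replicate 1. In DKO against Dnmt3l KO, 1 of the 31 was higher. The 20 cell cycle genes held 0 members past an unadjusted p of 0.05, with a median of -0.04. Because the libraries were made from polyadenylated RNA, the part of tail selection in these histone values was not tested.

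**Figure D5:**
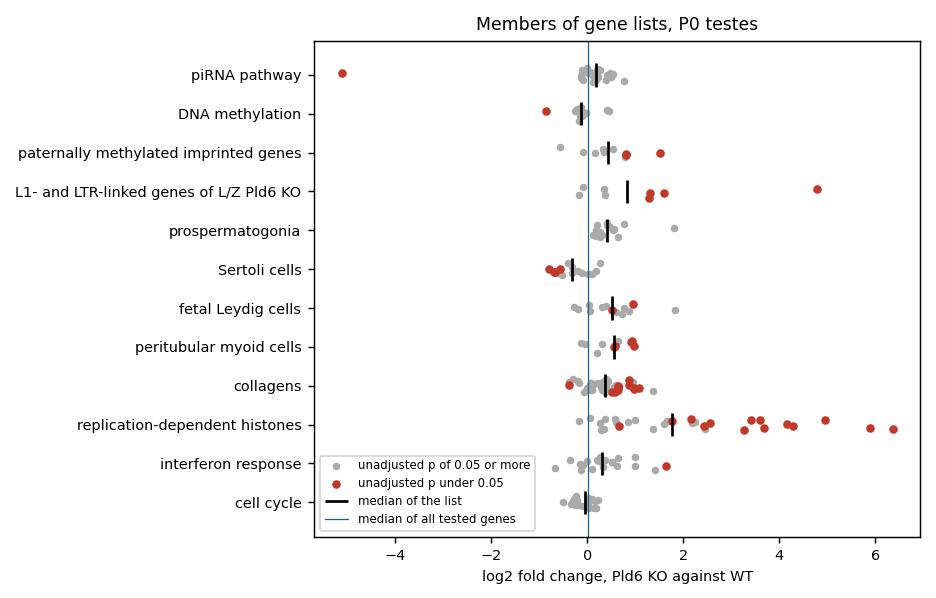
Log2 fold change in Pld6 KO against WT of each tested member of 12 gene lists, in red at an unadjusted p under 0.05, with the list's median (black) and that of all tested genes (blue). In the piRNA pathway the single red point is Pld6. Fitted values of histones with 0 counts in WT depend on the prior count.

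Genes that are not protein-coding were compared with protein-coding genes, since 4930470H14Rik, Gm17644, A630089N07Rik and 2610507I01Rik all lead the comparison. Of 748 such genes tested, 32 were higher (4.28%) and 18 lower (2.41%) at an unadjusted p under 0.05. Of 15097 protein-coding genes, 466 were higher (3.09%) and 283 lower (1.87%). The medians were 0.03 and 0.02. The interquartile range of log2 fold changes was wider in the genes that are not protein-coding, from -0.24 to 0.34 against -0.14 to 0.21. That set takes in pseudogenes as well as non-coding RNAs, and it holds the leading genes that prompted the comparison. Expression levels were not matched between the sets, so their part in the spread was not tested.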

How the data were processed

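The authors aligned 100-bp read pairs with TopHat to mm10 and quantified RefSeq genes with Cuffdiff. Tool versions are not given in the sources used here. The deposited table holds the estimated counts that the authors made with Cuffdiff for each gene and library, of which 97.7% were whole at P0, and the FPKM made by the authors from them. Of 23980 genes listed, 2 were left out for their status. One is the ribosomal RNA gene Rn45s, listed at 0 in every Pld6 KO library with the status HIDATA, which marks it as not quantified. Both WT libraries had the status OK, with 0.114% and 0.104% of fragments. Its level could therefore not be compared with WT, and the status divides the libraries as genotype does. The part of ribosomal RNA in the other results was not tested. Rn45s took 4.43% of fragments in DKO replicate 1 and 0.25% to 0.981% in the other DKO and Dnmt3l KO libraries. Replicates are numbered from 0 in the table and from 1 in the labels, and they were matched in ascending order.

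Estimated counts were rounded and fitted in R 4.3.3 with edgeR 4.0.16 (filterByExpr, TMM, glmQLFit, glmQLFTest) over all 11 P0 libraries, with Benjamini-Hochberg adjustment over all genes. L/Z libraries, a separate deposited table, were fitted apart. SE is the log2 fold change divided by the square root of the F statistic. Count intervals are exact binomial. Alternatives used limma 3.58.1 on log2(FPKM + 1) or log2(FPKM + 0.1) and DESeq2 1.42.0. Positions are RefSeq GRCm38.p6. Transcripts are GENCODE M21, compared with BLAST+ 2.17.0 (E-value 1e-20).

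The members and the 28 gene lists were chosen with earlier results of these data known. Named were Pld6, the called gene and its neighbours, the 10 leading genes of each direction (no overlap, mean of at least 50 counts in the higher group), up to 4 members per list with an unadjusted p under 0.05 and no overlap, and 8 defining markers. Other named genes, and the sequence search, were chosen after values were seen.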

Additional observations from a re-analysis of the deposited data

Results flagged for a closer look

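A library stood apart from the other 3 Pld6 KO libraries in 8 of 80 values checked by Dixon's ratio at the 95% level. Several of these values share genes, such as Dazl and the sum of prospermatogonia markers. The count therefore cannot be set against the 1 in 20 that chance gives for independent values. Pld6 KO replicate 1 was the lowest for germ cell values, with a mean log2 CPM of 2.60 over 14 prospermatogonia markers against 4.42 to 4.54 in the other 3, a sum of 159 CPM over the 15 prospermatogonia markers against 566 to 635 CPM, a sum of 222 CPM over germline genes controlled by promoter methylation against 549 to 584 CPM, and 48.4 CPM of Dazl against 132 to 147 CPM. The same library was the highest for 2610507I01Rik, at 30.4 CPM against 3.82 to 6.85 CPM. Pld6 KO replicate 4 was the highest for Pamr1 (29.6 CPM against 10.4 to 12.1 CPM), Caps2 (1.21 CPM against 0.428 to 0.556 CPM) and Hist2h2aa1 (6.04 CPM against 1.65 to 2.07 CPM).

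In 3 leading genes that were lower in Pld6 KO at P0, both Pld6 KO libraries of L/Z spermatocytes lay above both WT libraries in CPM. The log2 fold changes there were 0.34 for Eif3j1 (SE 0.708), 0.46 for Atp10d (SE 0.365) and 1.24 for Eps8l1 (SE 0.572). Their unadjusted p-values at L/Z were 0.644, 0.236 and 0.0522 (edgeR), so none passed 0.05. Eif3j1 and Eps8l1 rested on few fragments at that stage, between 5 and 12 per library. The share of all L/Z genes with this order of libraries was not counted. The difference between the stages was not tested.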

How the results depend on the processing

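The count of 1 called gene in Pld6 KO was 14 with the DESeq2 Wald test (12 higher, 2 lower), 4 without the filter on low counts, with only the compared groups, with limma on log2(FPKM + 0.1) or with the prospermatogonia covariate, and 3 with limma on log2(FPKM + 1). It ranged from 1 to 4 when each library was left out, and 4930470H14Rik was called in all of these settings except without WT replicate 1 or 2. Leaving out a WT library assumes that the lone WT sample varies like the other groups. The count of 12 called in DKO against Dnmt3l KO was 259, 91, 109 and 108 with the Wald test, no filter, the compared groups alone and the covariate, and ranged from 0 to 121 when each library was left out. It was 0 without DKO replicate 1, DKO replicate 3 or Dnmt3l KO replicate 1, and 121 without Dnmt3l KO replicate 2 (14 higher, 107 lower). DESeq2 size factors, a mean of at least 50 counts and no fold threshold left both counts within 1.5 times. The causes were not tested.

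With the replicate number as a block, 0 genes were called in either comparison (745 with an unadjusted p under 0.05 in Pld6 KO), and 4930470H14Rik had a log2 fold change of 3.18 (FDR 0.0877, edgeR). Deviations of libraries with the same number correlated at -0.06 and -0.12 between WT and Pld6 KO, and no label ties them to a litter or day, so the numbers were not taken as pairs. No named gene with an unadjusted p under 0.05 changed sign in any setting. All 10 leading higher genes were above 0 in DKO against Dnmt3l KO in each of the 14 settings tried there. In low genes such as the histones, depth limits what can be seen, since 1 count in WT is 0.085 CPM.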

Other observations

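Ribosomal protein and respiratory chain genes leaned upward in Pld6 KO by small amounts. Of 76 cytosolic ribosomal protein genes, 73 had a log2 fold change above 0 (53.2% of all genes), with a median of 0.22, and 1 passed an unadjusted p of 0.05 (Rps9, higher). Their sum was 49623 and 55494 CPM in WT and 73763, 54901, 46201 and 70967 CPM in Pld6 KO, highest in KO replicates 1 and 4, which also held the most histone RNA. Of 91 oxidative phosphorylation genes, 72 were above 0, with a median of 0.12, and 1 passed (Cox4i1, higher). In DKO against Dnmt3l KO the medians were -0.28 for both lists, with 9 and 18 genes lower at an unadjusted p under 0.05 and 1 and 0 higher.

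None of 15 immediate early genes, which rise in handled tissue, passed in Pld6 KO (median 0.12). In DKO against Dnmt3l KO 7 of them were higher and 0 lower (9.99% and 7.84% of all genes), with a median of 0.87 and sums of 655, 358 and 460 CPM against 324 and 320 CPM. Their part in the other results of that comparison was not tested. Of 20 cholesterol synthesis genes, 0 passed in Pld6 KO (median -0.13), and 1 was higher and 8 were lower in DKO (median -0.30). Of 20 interferon-response genes, 1 was higher, Xaf1, at 3.14 and 2.6 CPM in WT and 3.47, 2.94, 11.6 and 18.1 CPM in KO, and the median was 0.31. Among 15 p53 targets, Trp53inp1 was higher and Pmaip1, a BH3-only cell death gene, lower, at 28.3 and 25.9 CPM in WT and 6.36, 21.5, 15.4 and 7.65 CPM in KO.

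Meiotic and later germ cell genes were present at low levels. Of 12 markers of L/Z spermatocytes, 1 was higher, Sycp1, a protein of the synaptonemal complex, at 11 and 9.57 CPM in WT and 18.3, 20.8, 20.6 and 13.1 CPM in KO (log2 fold change 0.83, SE 0.38). Of 7 late germ cell markers tested, 1 was higher, Spaca1, at 0.595 and 1.34 CPM in WT and 1.63 to 3.72 CPM in KO. None of 11 spermatogonia markers passed (median 0.23), and none of 9 striated muscle genes (median -0.15), whose sign turned to 0.36 without WT replicate 1.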
